A study of Mus musculus with 8 samples.

Results

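The 8 genes described here encode inhibitors that are switched on by mitogen-activated protein (MAP) kinase signalling and act back on it: the dual-specificity phosphatases Dusp1, Dusp2, Dusp4, Dusp5, Dusp6 and Dusp10, and the Sprouty proteins Spry1 and Spry2. They were taken by name from the 25124 genes of the deposited tables, all 8 were present, and all 8 passed the filter on low counts. RNA was sequenced from mouse CD4 T cells of the spleen. The mice carried a GFP reporter of KLF2, a transcription factor of resting and recirculating lymphocytes, together with an RFP reporter of FOXP3, which marks regulatory T cells. Cells without FOXP3 signal and with high CD44, a surface marker of antigen-experienced T cells, were sorted into KLF2+ and KLF2- populations. Each population was held for 48 h either unstimulated or with anti-CD3 at 2.5 micrograms per mL and anti-CD28 at 1.25 micrograms per mL, antibodies that engage the T cell receptor complex and a costimulatory receptor. This made 4 groups of 2 libraries, numbered 1 and 2 in both KLF2+ groups and 3 and 4 in both KLF2- groups. Both populations carried both reporters, and the sources used here do not give the age, sex or pooling of the animals. The labels do not tell whether the 2 libraries of a group came from separate animals or cultures. Each p-value below then reflects only how far these libraries lie apart, and that spread may be technical.

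T cell receptor engagement activates Ras and the MAP kinases ERK, JNK and p38, which drive early gene induction in T cells. Dual-specificity phosphatases of the MAP kinase phosphatase class remove the activating phosphates from these kinases, and most of them are themselves transcriptional products of the pathway, so that their RNA is commonly read as a trace of recent signalling. DUSP5 in the nucleus and DUSP6 in the cytoplasm act mainly on ERK, DUSP1, DUSP2 and DUSP4 are inducible nuclear phosphatases of broader range, and DUSP10 acts mainly on JNK and p38. Sprouty proteins act further up, where they restrain the passage of signals from receptors to Ras and the kinases below it.

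The libraries differed in a way that touches every comparison with stimulated KLF2- cells. Exon reads were 4.53 M and 2.99 M in stimulated KLF2-, 7.34 M and 8.62 M in unstimulated KLF2-, 8.27 M and 17.8 M in unstimulated KLF2+ and 21.03 M and 36.6 M in stimulated KLF2+. A level of background was read from 1464 olfactory and vomeronasal receptor genes, which T cells are not known to use. Spread over the length of all genes, it came to 11.4% and 20.1% of the exon reads in stimulated KLF2-, against 0.401% and 1.24% in stimulated KLF2+ and 2.61% to 7.80% in the unstimulated groups. With TMM, a scaling that takes most genes as unchanged, the log2 fold change of the median gene between the stimulated populations was -0.19, and it moved to -1.39 when the scaling was taken only from genes of at least 50 CPM, the counts scaled to a common depth. The corresponding medians were -0.11 and -0.39 between the unstimulated populations, -0.25 and -0.75 for the response of KLF2+ cells, 0.06 and 0.45 for that of KLF2- cells, and -0.09 and -1.003 for the difference between the responses. Each fold change below is therefore given from the TMM-scaled edgeR fit and, where it matters, after subtraction of the background, in which 15292 genes were tested with scaling from the genes of at least 50 CPM. Klf2 itself was at 303 and 379 CPM in unstimulated KLF2+, 93.5 and 139 in stimulated KLF2+, 41.02 and 65.0 in unstimulated KLF2- and 46.6 and 75.7 in stimulated KLF2-. The cells were sorted before the culture. Klf2 was higher in KLF2+ without stimulus (log2 fold change 2.69 ± 0.33, adjusted p = 0.00455 by edgeR), but between the stimulated populations its value of 0.93 ± 0.32 (adjusted p = 0.0236) turned to -0.39 after background subtraction. None of 12 T cell markers was at 0 in any library, and their summed level was 3360 and 3275 CPM in stimulated KLF2-, 4427 and 5036 in unstimulated KLF2-, 6106 and 9139 in unstimulated KLF2+ and 8599 and 9391 in stimulated KLF2+. Between the stimulated populations all 12 were called higher in KLF2+ with TMM, and 3 higher and 1 lower after background subtraction. A list of 15 macrophage and monocyte markers summed to 986 and 1776 CPM in unstimulated KLF2+, against 58.8 to 114 CPM in the other 6 libraries. In 5 of those 6, 1 of the 15 was at 0 (S100a8 in 2 libraries, and C1qb, Fcgr1 or Clec4n in 1 each). A list of 5 dendritic cell markers summed to 93.2 to 131 CPM in KLF2-, 51.2 and 52.9 CPM in unstimulated KLF2+ and 22.0 and 24.7 CPM in stimulated KLF2+.

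Levels are first given as deposited TPM, a count divided by gene length and scaled per library, which can be set side by side between genes. Dusp2 was the most abundant of the 8 in unstimulated KLF2+ cells, at 123 ± 11.1 TPM (mean and SD, n = 2), followed by Dusp10 at 44.2 ± 10.2, Dusp1 at 32.6 ± 12.4 and Dusp5 at 24.6 ± 0.576. Spry1 at 6.06 ± 0.730, Dusp6 at 3.44 ± 0.685, Spry2 at 1.45 ± 1.16 and Dusp4 at 0.899 ± 0.190 lay far below. The ranges of Dusp10 and Dusp1, of Dusp1 and Dusp5, and of Spry2 and Dusp4 overlapped between neighbours in that order. In unstimulated KLF2- cells the order was different: Dusp5 stood first at 115 ± 28.4 TPM, then Dusp10 at 96.8 ± 0.967, Dusp2 at 86.4 ± 26.1 and Dusp1 at 67.0 ± 24.5. These 4 could not be ordered beyond the spread of the libraries, except that both Dusp1 values lay below those of Dusp10 and Dusp5. Dusp6, Spry1 and Spry2 were close together there, at 7.40 ± 1.94, 6.07 ± 1.48 and 5.48 ± 0.155 TPM, and Dusp4 was lowest at 2.78 ± 1.11.

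After stimulation the KLF2+ cells held Dusp2 at 147 ± 0.651 TPM, Dusp5 at 65.0 ± 15.7, Dusp10 at 57.3 ± 7.37 and Dusp1 at 28.2 ± 7.79. Dusp6 at 16.8 ± 1.42 and Dusp4 at 13.8 ± 1.21 TPM now stood above Spry1 at 4.27 ± 0.846, and Spry2 was near the bottom of the table at 0.171 ± 0.0771. Only the ranges of Dusp5 and Dusp10 overlapped among neighbours in this group. In stimulated KLF2- cells the libraries spread more widely, with Dusp2 at 109 ± 40.0 TPM, Dusp5 at 85.4 ± 28.4, Dusp1 at 66.7 ± 32.2 and Dusp10 at 40.9 ± 29.4, each of the 4 overlapping with its neighbour. Dusp6 at 12.5 ± 1.25, Spry2 at 10.6 ± 1.43, Dusp4 at 8.08 ± 6.84 and Spry1 at 4.33 ± 1.40 followed, and Dusp4 overlapped with both of its neighbours. Spry2 had the widest range of the 8, from 0.116 to 11.6 TPM or 100-fold across the libraries, and Dusp4 came next with 19.2-fold. Spry1 and Dusp2 had the narrowest, with 2.13-fold and 2.17-fold.

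**Figure D1:**
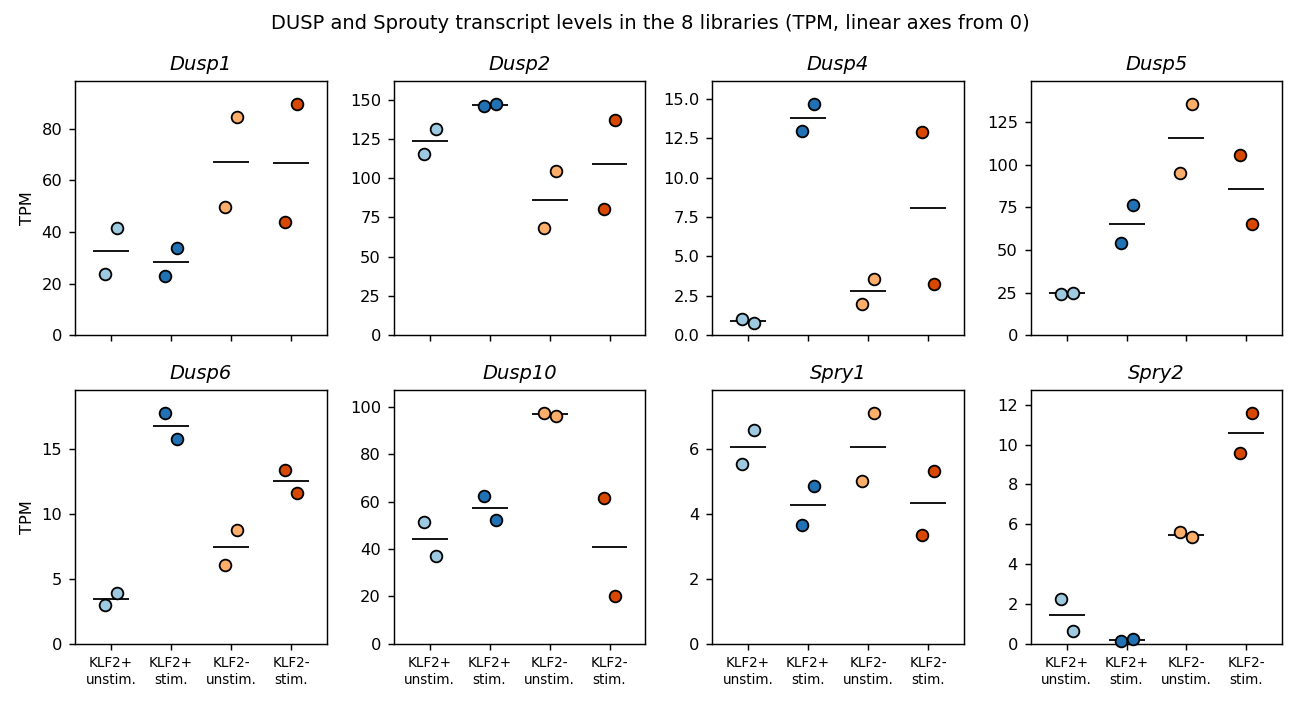
Level of each of the 8 genes in TPM (vertical axes, linear and starting at 0) in the 4 groups, with 1 point per library and a bar at the group mean. Dusp4 and Dusp6 are high in both stimulated KLF2+ libraries, Spry2 is near 0 there, and Dusp5 is lowest in the unstimulated KLF2+ libraries. Dusp4 is at 12.91 TPM in stimulated KLF2- library 3, beside 12.95 and 14.66 in stimulated KLF2+. Dusp6 is at 13.4 and 11.6 TPM in stimulated KLF2-, beside 17.8 and 15.8 in stimulated KLF2+.

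The summed TPM of the 8 genes was 227 and 246 in unstimulated KLF2+, 320 and 345 in stimulated KLF2+, 329 and 446 in unstimulated KLF2-, and 331 and 344 in stimulated KLF2-. Shares of that sum do not depend on how libraries are scaled to one another. Dusp2, a nuclear phosphatase first known from activated haematopoietic cells, made up 51.0% and 53.3% of the sum in unstimulated KLF2+ and 45.7% and 42.7% in stimulated KLF2+. In KLF2- it made up 20.7% and 23.5% without stimulus, and 24.4% and 39.9% with it, so that its share was lower in all 4 KLF2- libraries than in all 4 KLF2+ libraries. Dusp5 was 10.7% and 10.1% of the sum in unstimulated KLF2+, 16.8% and 22.1% in stimulated KLF2+, 28.9% and 30.4% in unstimulated KLF2-, and 31.9% and 19.0% in stimulated KLF2-. The ratio of Dusp1 to Dusp2, a pair chosen after their values were seen, was 0.206 and 0.315 in unstimulated KLF2+, 0.155 and 0.229 in stimulated KLF2+, 0.732 and 0.804 in unstimulated KLF2-, and 0.544 and 0.652 in stimulated KLF2-. This ratio did not overlap between the populations, with or without stimulus. For the Sprouty genes the ratio of Spry1 to Spry2 was 2.44 and 10.5 in unstimulated KLF2+ and 31.6 and 21.6 in stimulated KLF2+. It was 0.899 and 1.32 in unstimulated KLF2-, and 0.348 and 0.458 in stimulated KLF2-, again with no overlap between the populations. The ratios of Dusp5, Dusp6 and Dusp10 to Dusp2 and of Dusp4 to Dusp6 were also computed, and each overlapped between the stimulated populations. For Dusp5 to Dusp2 the values were 0.368 and 0.517 in stimulated KLF2+, and 1.31 and 0.476 in stimulated KLF2-. All these ratios are descriptions and were not tested. Shares and ratios are not corrected for background. It would account for 160% and 26.5% of the 5 and 17 reads of Spry2 in stimulated KLF2+. For Spry1 in stimulated KLF2- it would account for 59.0% and 68.7% of the reads, so the Sprouty ratios have no firm size.

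**Figure D2:**
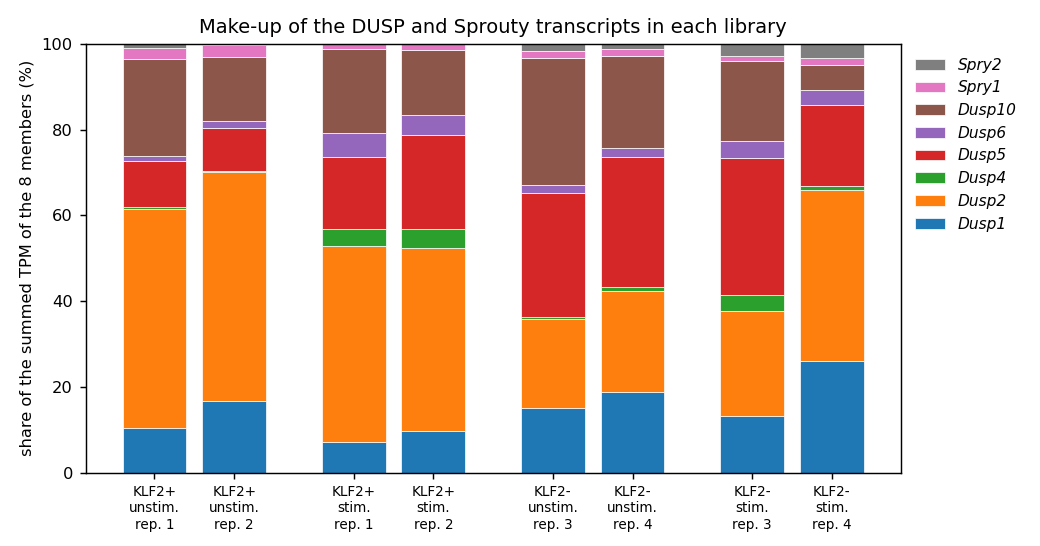
Share of each gene, in percent of the summed TPM of the 8 genes (axis from 0 to 100), with 1 stacked bar per library. The Dusp2 segment is 42.7% to 53.3% in the 4 KLF2+ libraries and 20.7% to 39.9% in the 4 KLF2- libraries.

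Dusp5, Dusp6 and Spry2, examples of the genes called in the comparisons below, are shown by the 250 bases ahead of their RefSeq start sites in GRCm38.p6, with matches to searched motifs in capitals. Dusp5 (chr19:53529145-53541809, plus strand, protein coding) has the window chr19:53528895-53529144. Dusp6 (chr10:99263231-99267489, plus strand, protein coding) has the window chr10:99262981-99263230. Spry2 (chr14:105891947-105896819, minus strand, protein coding) has the window chr14:105896820-105897069. Each is printed from 5′ to 3′ on the strand of its gene, the last base lying next to the start.
Dusp5: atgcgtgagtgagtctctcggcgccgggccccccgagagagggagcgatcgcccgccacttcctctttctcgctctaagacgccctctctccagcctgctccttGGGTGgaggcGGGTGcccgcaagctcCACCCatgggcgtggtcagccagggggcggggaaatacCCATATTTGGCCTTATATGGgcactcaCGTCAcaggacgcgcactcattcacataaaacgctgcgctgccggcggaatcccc
Dusp6: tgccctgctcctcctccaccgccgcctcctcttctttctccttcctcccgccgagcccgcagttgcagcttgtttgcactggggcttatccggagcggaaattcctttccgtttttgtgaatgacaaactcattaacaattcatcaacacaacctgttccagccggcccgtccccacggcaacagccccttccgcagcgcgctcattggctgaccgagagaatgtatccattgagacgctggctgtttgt
Spry2: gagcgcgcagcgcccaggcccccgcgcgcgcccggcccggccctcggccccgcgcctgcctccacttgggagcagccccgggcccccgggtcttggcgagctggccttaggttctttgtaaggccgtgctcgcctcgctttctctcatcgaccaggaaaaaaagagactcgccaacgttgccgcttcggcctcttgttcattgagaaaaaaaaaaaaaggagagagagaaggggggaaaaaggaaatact

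In the Dusp5 window the capitals mark 2 adjoining CArG boxes, the element bound by serum response factor, at 82 to 73 and 72 to 63 bases before the start. They also mark 3 matches to the KLF motif CACCC or its reverse complement GGGTG, and 1 to TGACG or its reverse complement CGTCA, the core of a cyclic AMP response element. The CArG box was added to the search after the sequence had been seen, and 1.47% of 32851 promoter windows of this length hold 1 or more. The KLF motif is in 52.0% of windows and TGACG in 17.8%. Promoters of 7 of the 8 genes, all but Dusp4, were matched in the table. Of these 7, 4 held CACCC (Dusp1, Dusp2, Dusp5 and Dusp10), 1 held the full element TGACGTCA (Dusp1, against 1.55% of windows) and 1 held the EGR motif GCGNGGGCG (Dusp2, against 4.70%). In Dusp1 the full element contains 2 of its 3 matches to TGACG. None of the 7 held the AP-1 motif TGANTCA, found in 6.75% of windows, or the ETS motif CCGGAAG, found in 6.91%, on either strand. The windows of Dusp6, Spry1 and Spry2 held none of the motifs searched. Matches are letters in a window and were not measured as binding in these cells.

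In KLF2+ cells Dusp4, Dusp5 and Dusp6 rose after 48 h of stimulation. Dusp6, the cytoplasmic ERK phosphatase, was at 6.87 and 12.6 CPM in the 2 unstimulated libraries and at 77.4 and 69.5 CPM in the 2 stimulated ones, which gave a log2 fold change of 2.90 ± 0.34 (adjusted p = 0.000847 with edgeR; errors here and below are SE, with 2 libraries a group). Dusp5, its nuclear counterpart, went from 36.4 and 51.8 to 152 and 218 CPM, a log2 fold change of 2.07 ± 0.36 (adjusted p = 0.00385). Dusp4, an inducible nuclear phosphatase, went from 2.08 and 2.12 to 48.9 and 56.1 CPM, a log2 fold change of 4.65 ± 0.65 (adjusted p = 0.00157). The groups did not overlap for any of these 3 genes. Behind the unstimulated Dusp4 values were 18.5 and 32 reads, of which background would account for 112% and 51.9%, so the size of its fold change is poorly set, at 6.07 after background subtraction. The stimulated libraries held 648 and 1286 reads of Dusp4, with background at 1.43% and 0.407%. After subtraction Dusp4, Dusp5 and Dusp6 were still called (adjusted p = 0.0370, 0.00871 and 0.00602). These 3 genes were called higher in all 18 alternative analyses of this comparison, with log2 fold changes of 2.96 to 6.07 for Dusp4, 1.35 to 2.39 for Dusp5 and 2.01 to 3.46 for Dusp6.

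Dusp2 and Spry2 also passed the test in KLF2+ cells, with less support. Dusp2 was at 155 and 243 CPM without stimulus and 368 and 375 CPM with it, a log2 fold change of 0.90 ± 0.30 (adjusted p = 0.0409 by edgeR). It was no longer called in 11 of 18 alternatives, among them background subtraction (0.39, adjusted p = 0.344) and the fits without unstimulated library 1 (0.59, adjusted p = 0.248), stimulated library 1 (0.91, adjusted p = 0.0827) or stimulated library 2 (0.88, adjusted p = 0.152), or without unstimulated KLF2- library 3 or 4 (adjusted p = 0.0582 and 0.0576). Spry2 fell by 2.17 ± 0.61 on the log2 scale (adjusted p = 0.0244), from 3.94 and 1.49 CPM to 0.378 and 0.742 CPM. These levels stood on 35 and 22.5 reads before and 5 and 17 reads after, and the call was lost in 8 of 18 alternatives, including background subtraction (-2.63, adjusted p = 0.126) and the fits without unstimulated library 1 (-1.34, adjusted p = 0.149), stimulated library 1 (-1.79, adjusted p = 0.0576), or unstimulated KLF2- library 3 or 4 (adjusted p = 0.0518 and 0.0528).

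The other 3 genes did not pass. Dusp10, the JNK and p38 phosphatase, was at 119 and 118 CPM unstimulated and 272 and 229 CPM stimulated, without overlap, at a log2 fold change of 1.08 ± 0.44 (adjusted p = 0.0763 by edgeR). It was called in 6 of 18 alternatives, with DESeq2 (1.09, adjusted p = 0.0307), without a low-count filter (1.09, adjusted p = 0.0384), with only the groups compared (1.00, adjusted p = 0.0046), without stimulated KLF2- library 3 or 4 (adjusted p = 0.00155 and 0.00141), and with the replicate number as a block. Dusp1, the immediate-early phosphatase, was at 38.4 and 91.6 CPM and then at 68.6 and 103 CPM. Its log2 fold change of 0.40 had a 95% interval of -0.56 to 1.36 and turned to -0.05 after background subtraction. Spry1 was at 11.5 and 18.8 CPM and then at 14.2 and 19.1 CPM, and its log2 fold change of 0.14 (interval -0.71 to 0.98) turned to -0.22 after background subtraction. In all, 4 of the 8 genes were called higher and 1 lower in this comparison, while over all genes 19.7% were called higher and 17.4% lower. After background subtraction 3 were called higher and none lower, against 12.7% and 16.4% of all genes. The median log2 fold change of the 8 was 0.99, or 0.47 after subtraction, beside -0.25 and -0.24 for all genes. The macrophage and monocyte markers moved with this comparison: 14 of the 15 were called lower in the stimulated cells. Whether they had a part in the values of the 8 genes was not tested, and in bulk RNA fewer cells of a type and less RNA per cell cannot be told apart.

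In KLF2- cells none of the 8 genes was called after stimulation by edgeR, and none by DESeq2. Over all 19146 genes tested, 0% were called higher and 0% lower by edgeR, with 2802 genes at an unadjusted p under 0.05 and 67 called by DESeq2. After background subtraction 0% were again called in either direction, with 2051 genes at an unadjusted p under 0.05. Among the 8, Dusp5 (log2 fold change -0.79 ± 0.35, unadjusted p = 0.0466, quasi-likelihood test across all genes in edgeR) and Dusp10 (-1.55 ± 0.45, unadjusted p = 0.00668) were under 0.05 before adjustment, both at an adjusted p of 0.268 or more. The 2 stimulated libraries differed widely for these genes and for Dusp4. Dusp10 was at 109 CPM in stimulated library 3 and 29.5 CPM in stimulated library 4, both below the 203 and 206 CPM of the unstimulated cells. Without stimulated library 3 its log2 fold change was -2.83 (adjusted p = 0.00732). Dusp5 was at 129 and 189 CPM unstimulated and at 121 and 62.3 CPM stimulated. Dusp4 was at 3.603 and 6.65 CPM unstimulated and at 19.9 and 4.14 CPM stimulated, where library 4 had 19 reads with a background of 113%, and its log2 fold change of 1.23 turned to -0.37 without stimulated library 3. Dusp6 was at 12.6 and 18.9 CPM and then at 23.7 and 17.1 CPM, with an interval on the log2 fold change of -0.364 to 1.118. In TPM the Dusp6 values were 6.04 and 8.77 and then 13.4 and 11.6, without overlap. After background subtraction the log2 fold changes were 1.85 for Dusp4, -0.41 for Dusp5, 0.72 for Dusp6 and -1.27 for Dusp10.

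The remaining genes of stimulated KLF2- cells stayed within wide intervals too. Spry2 was at 8.72 and 8.63 CPM unstimulated and 12.7 CPM in each stimulated library, without overlap, at a log2 fold change of 0.55 with an interval of -0.66 to 1.75. Dusp2 was at 82.0 and 130 CPM and then at 82.6 and 117 CPM, and its log2 fold change of -0.09 turned to 0.40 after background subtraction. Dusp1 was at 72.1 and 126 CPM and then at 54.0 and 91.3 CPM, with a log2 fold change of -0.45 that turned to 0.04. Spry1 was at 9.35 and 13.7 CPM and then at 5.28 and 6.97 CPM, a log2 fold change of -0.91 (interval -1.82 to 0.0021). Its 32 reads in each stimulated library included a background of 59.0% and 68.7%. After subtraction Spry1 was at -1.62 and Spry2 at 0.95. The median log2 fold change of the 8 was -0.27, or 0.22 after subtraction, beside 0.06 and 0.13 for all genes.

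The difference between the 2 responses was tested directly, as the change in KLF2+ minus the change in KLF2-. It was positive for Dusp5 at 2.85 ± 0.49 (log2, adjusted p = 0.0130 by edgeR), for Dusp6 at 2.52 ± 0.47 (adjusted p = 0.0148), for Dusp10 at 2.63 ± 0.63 (adjusted p = 0.0213) and for Dusp4 at 3.42 ± 0.84 (adjusted p = 0.0220). It was negative for Spry2 at -2.72 ± 0.81 (adjusted p = 0.0327). That made 4 of 8 genes positive and 1 negative, where 20.3% of all genes were called positive and 15.5% negative. After background subtraction Dusp5 alone was called, at 1.99 (adjusted p = 0.0358), where 3.58% of all genes were called positive and 8.24% negative. Dusp6 then stood at 2.03 (adjusted p = 0.0547), Dusp10 at 1.82 (adjusted p = 0.0854), Dusp4 at 4.22 (adjusted p = 0.190) and Spry2 at -3.58 (adjusted p = 0.145). Without unstimulated KLF2+ library 1, unstimulated KLF2- library 3 or unstimulated KLF2- library 4, Dusp5 was at 2.59, 3.13 and 2.58. Dusp6 was then at 2.13, 2.81 and 2.22, Spry2 at -1.88, -2.70 and -2.69, and Dusp1 at 0.33, 1.23 and 0.42. No call of the full fit held in any of these fits, each of which keeps 1 library in a group. Spry2 also lost its call without stimulated KLF2- library 3 or 4. Without unstimulated KLF2+ library 2, Dusp1 was at 1.66 and Dusp2 at 1.40. The share of all genes called in such fits is not given here, so lost or gained calls cannot be set beside it. In the full fit the differences of Dusp2 at 1.00, Spry1 at 1.05 and Dusp1 at 0.85 were not called (adjusted p = 0.0837, 0.146 and 0.268), and that of Dusp1 turned to -0.09 after background subtraction. The macrophage and monocyte markers had 11 of 15 negative differences called, and 4 of 13 after subtraction, and their part in these values was not tested. The median over the 8 was 1.78, or 1.61 after subtraction, beside -0.09 and -0.24 for all genes.

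**Figure D3:**
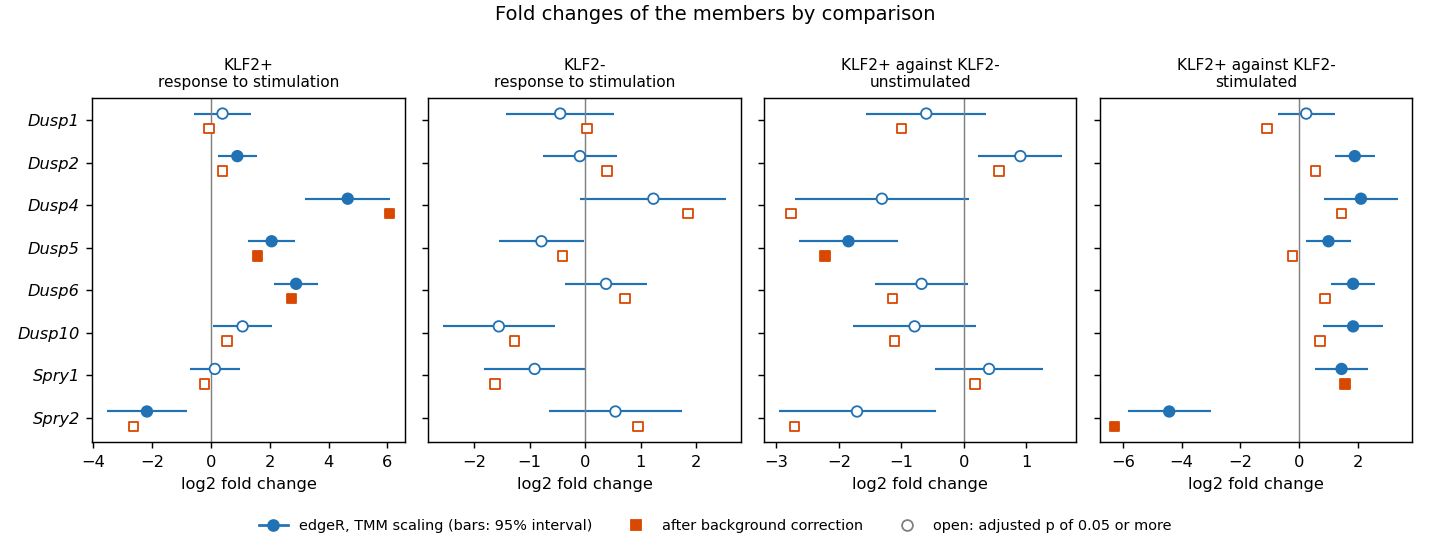
Log2 fold change of each gene (horizontal axes) from the TMM-scaled edgeR fit with its 95% interval, beside the value after background subtraction. Panels show the KLF2+ response, the KLF2- response, and the populations compared without and with stimulus. The difference between the responses is not drawn. Dusp4, Dusp5 and Dusp6 lie to the right of 0 in the KLF2+ response under both, while in the KLF2- response no gene was called.

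Without stimulation 1 of the 8 genes was called between the populations. Dusp5 was at 36.4 and 51.8 CPM in KLF2+ and at 129 and 189 CPM in KLF2-, a log2 fold change of -1.85 ± 0.35 (adjusted p = 0.0272 by edgeR), or -2.22 (adjusted p = 0.0107) after background subtraction. No gene was called higher and 1 was called lower by either analysis, where 1.07% of all genes were called higher and 1.25% lower, and 0.974% and 3.05% after subtraction. The Dusp5 call was kept in 13 of 17 alternatives and lost whenever a library of the groups compared was left out: without KLF2+ library 1 (-1.55, adjusted p = 0.0695), KLF2+ library 2 (-2.12, adjusted p = 0.159), KLF2- library 3 (-2.09, adjusted p = 0.110) or KLF2- library 4 (-1.54, adjusted p = 0.266). An antisense gene overlaps Dusp5 and another transcript overlaps Spry1 on the opposite strand in GENCODE M21. The sources used here do not say whether the counting used strand, so reads of these pairs cannot be told apart.

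Spry2 and Dusp2 did not overlap between the unstimulated populations and did not pass the adjusted threshold. Spry2 was at 3.94 and 1.49 CPM in KLF2+ and 8.72 and 8.63 CPM in KLF2- (log2 fold change -1.71 ± 0.56, adjusted p = 0.160 by edgeR). Dusp2 was at 155 and 243 CPM in KLF2+ and 82.0 and 130 CPM in KLF2- (0.91 ± 0.30, adjusted p = 0.163). Among the alternatives Dusp2 was called in 2 of 17, including DESeq2 (1.04, adjusted p = 0.0313), and Spry2 in 1 of 17. Dusp10, Dusp4 and Dusp6 did not overlap either, at log2 fold changes of -0.79, -1.31 and -0.68 (adjusted p = 0.346, 0.285 and 0.295). Dusp10 was called in 3 of 17 alternatives, among them the fit of only the groups compared (-0.80, adjusted p = 0.0433 by edgeR). Here and elsewhere the share of all genes that did not overlap was not counted, so a lack of overlap is only a description. Dusp1 was at -0.60 and Spry1 at 0.40, with adjusted p of 0.446 and 0.561. The median of the 8 was -0.73, beside -0.11 for all genes. The macrophage and monocyte marker sum of 986 and 1776 CPM in KLF2+ against 74.3 and 82.6 CPM in KLF2- stood beside these values, with 5 of 15 markers called higher in KLF2+, and its part in them was not tested. The dendritic cell markers moved too, with 2 of 5 called lower in KLF2+ and 1 higher here, and 4 lower and 1 higher between the stimulated populations.

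Between the stimulated populations, Spry2 was far lower in KLF2+. It was at 0.378 and 0.742 CPM in KLF2+ and at 12.7 CPM in both KLF2- libraries, a log2 fold change of -4.43 ± 0.64 (adjusted p = 0.000426 by edgeR) and -6.29 (adjusted p = 0.00673) after background subtraction. It was called lower in all 17 alternatives, with log2 fold changes of -6.29 to -3.30. The reads behind it were 5 and 17 in stimulated KLF2+, where background would account for 160% and 26.5%, and 77 and 58.5 in stimulated KLF2-, where it would account for 20.5% and 31.5%. The level in stimulated KLF2+ is thus close to the background, and the fold change has no firm size.

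Dusp2, Dusp4, Dusp5, Dusp6, Dusp10 and Spry1 were called higher in stimulated KLF2+ with TMM scaling, but 5 of these 6 calls were lost after background subtraction and all 6 with scaling from abundant genes. Dusp2 stood at 368 and 375 CPM against 82.6 and 117 CPM (log2 fold change 1.90 ± 0.31, adjusted p = 0.000677 by edgeR), and Dusp6 at 77.4 and 69.5 against 23.7 and 17.1 CPM (1.84 ± 0.33, adjusted p = 0.00104). Dusp10 stood at 272 and 229 against 109 and 29.5 CPM (1.85 ± 0.46, adjusted p = 0.00515), and Dusp4 at 48.9 and 56.1 against 19.9 and 4.14 CPM (2.11 ± 0.57, adjusted p = 0.00783). Cd3e, an invariant chain of the T cell receptor complex, differed in the same direction by 1.41 ± 0.28. After background subtraction Cd3e was at 0.10 and the values became 0.56 for Dusp2, 0.89 for Dusp6, 0.71 for Dusp10 and 1.45 for Dusp4, with adjusted p of 0.154, 0.0884, 0.202 and 0.392. Against the median gene of the same fit these 4 were at 2.09, 2.03, 2.04 and 2.30 with TMM and at 1.03, 1.36, 1.18 and 1.92 after subtraction.

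Dusp5 and Dusp1 lay on either side of 0 in this comparison, depending on the scaling. Against the median gene of the same fit Dusp5 was at 1.196 with TMM, 1.24 with scaling from abundant genes and 0.24 after subtraction, and Dusp1 at 0.44, 0.40 and -0.62. Dusp5 was at 152 and 218 CPM in KLF2+ and 121 and 62.3 CPM in KLF2-, a log2 fold change of 1.01 ± 0.35 (adjusted p = 0.0237 by edgeR) that turned to -0.23 (adjusted p = 0.491) after background subtraction and to -0.15 with scaling from abundant genes. It was not called without stimulated KLF2+ library 2 (0.76, adjusted p = 0.122) or stimulated KLF2- library 4 (0.62, adjusted p = 0.129). Dusp1 was at 68.6 and 103 CPM against 54.0 and 91.3 CPM, at 0.25 ± 0.43 (adjusted p = 0.615) with TMM and -1.09 (adjusted p = 0.0856) after subtraction. On the deposited TPM with limma it was called lower in KLF2+ (-1.15, adjusted p = 0.0228). Spry1 was at 14.2 and 19.1 against 5.28 and 6.97 CPM, at 1.45 ± 0.41 (adjusted p = 0.00935) and 1.57 (adjusted p = 0.0315) after subtraction, while on TPM with limma its difference was near 0, at -0.00027. With TMM 6 of the 8 genes were called higher and 1 lower, where 35.5% of all genes were called higher and 39.7% lower. After subtraction 1 was called higher and 1 lower, against 16.0% and 38.6%, and with scaling from abundant genes only Spry2 was called. The median of the 8 was 1.65, or 0.64 after subtraction, beside -0.19 and -0.47 for all genes. With scaling from abundant genes 2280 genes were called higher and 11169 lower, against 6799 and 7597 with TMM.

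**Figure D4:**
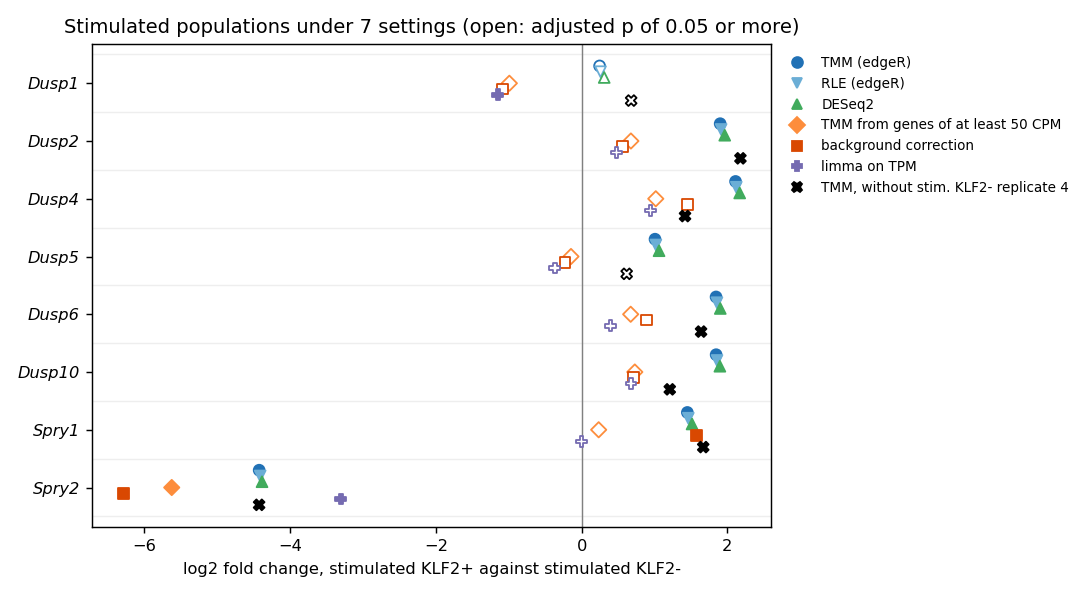
Log2 fold change of each gene between stimulated KLF2+ and stimulated KLF2- cells (horizontal axis) under 7 settings, filled where called at an adjusted p under 0.05 and open otherwise. Spry2 is filled and far below 0 under all of them, while Dusp1 and Dusp5 fall on both sides of 0.

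Other genes of the pathway were read from lists that fit the MAP kinases, chosen with earlier results of these data known. For the KLF2+ response their counts stand beside 19.7% of all genes called higher and 17.4% lower, or 12.7% and 16.4% after background subtraction. Of 21 transcriptional targets of MAP kinase signalling tested, 11 were called higher and none lower, with Egr2 at 3.17 ± 0.34 and Nr4a1 at 2.94 ± 0.31, both early transcription factors of T cell activation, and Phlda1 at 2.24 ± 0.28 (log2; adjusted p = 0.000572, 0.000565 and 0.00102 by edgeR). After background subtraction 8 of 19 were higher and 3 lower. Their median was 1.56, beside -0.25 for all genes. Of 22 genes of the ERK cascade, 5 were higher, among them the GTPase Nras at 1.02 ± 0.19, and 1 was lower, the Ras GTPase-activating protein Rasa3 at -1.46 ± 0.27. After subtraction 2 were higher and 3 lower. In the JNK and p38 list 7 of 19 were higher and 2 lower, with Gadd45g at 3.36 ± 0.40, the p38-activated kinase Mapkapk2 at 2.06 ± 0.26 and Gadd45b at 1.68 ± 0.23 leading by p. After subtraction 4 were higher and 3 lower.

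Among relatives of the 8 genes the KLF2+ response was mixed. Of 3 other MAP kinase phosphatases tested none was called, with Dusp7, the most abundant, at -0.19 ± 0.20, and after subtraction Dusp7, the 1 tested there, was lower at -0.71. Of 14 atypical DUSP genes, 2 were higher (Dusp14 at 1.94 ± 0.32 and Dusp19 at 1.28 ± 0.27) and 1 lower (Dusp27 at -3.52 ± 0.97), and after subtraction 1 of 10 was higher. Dusp27 went from 4.28 and 0.895 to 0.378 and 0.0654 CPM, so the size of its fold change is poorly set. Of 4 other Sprouty and Spred genes 1 was higher, Spred1 at 0.97 ± 0.23, as was 1 of 3 after subtraction. Of 10 other phosphatases that act on MAP kinases or their neighbours 5 were higher and 1 lower, and 3 and 2 after subtraction. They included Ptpn7, a lymphocyte tyrosine phosphatase of ERK and p38, at 1.48 ± 0.22, Ptpn5 at 1.90 ± 0.40 and Ptprr at -2.49 ± 0.64. Ptprr went from 3.32 and 1.99 to 0.642 and 0.349 CPM, so the size of its fold change is poorly set too.

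In the KLF2- response no gene of any of these 7 lists was called by edgeR, as for all genes. At an unadjusted p under 0.05 there were 14.6% of all genes, and 6 of the 21 targets, 8 of the 22 ERK cascade genes, 4 of the 19 JNK and p38 genes, 2 of the 10 other phosphatases, 1 of the 14 atypical DUSP genes, and none of the other 2 lists. DESeq2 called 3 of the targets and none of the other lists. These 3, named because DESeq2 called them, were Nr4a1, Egr2 and Egr1. Nr4a1 was at 7.84 and 7.26 CPM unstimulated and 37.3 and 49.6 CPM stimulated, without overlap (log2 fold change 2.51 ± 0.33, adjusted p = 0.262 by edgeR and 5.93e-08 by DESeq2). Egr2 was at 6.62 and 5.58 CPM and then at 42.8 and 19.1 CPM (2.36 ± 0.36, adjusted p = 0.262 by edgeR and 4.37e-06 by DESeq2). Egr1 was at 1.498 ± 0.36 (adjusted p = 0.268 by edgeR and 0.0170 by DESeq2). The most abundant member of each list was at log2 fold changes of -0.60 (Jund), -0.23 (Rasa3), 0.09 (Mapkapk2), -0.52 (Ppp2ca), -0.37 (Dusp11), -0.26 (Dusp7) and -0.15 (Spred1).

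For the difference between the responses, 20.3% of all genes were called positive and 15.5% negative, or 3.58% and 8.24% after subtraction. Of the 21 targets 6 were positive and 1 negative, led by Jun at 2.73 ± 0.45, Junb at 1.97 ± 0.33 and Etv5 at 2.02 ± 0.39. After subtraction 1 of 19 was positive and 2 negative, and Jun was still called at 2.13. For the ERK cascade 9 of 22 were positive and 2 negative, with Map2k2 at 1.53 ± 0.30 and Rps6ka1 at 1.34 ± 0.28 among the positive ones, and after subtraction 2 and 3. For JNK and p38 8 of 19 were positive and 1 negative, led by Gadd45b at 2.17 ± 0.32, Mapkapk2 at 1.97 ± 0.36 and Gadd45g at 2.51 ± 0.55, and after subtraction 2 and 1. Of the 10 other phosphatases 5 were positive and 1 negative, with Ptpn7 at 1.32 ± 0.31, Ppp2ca at 1.43 ± 0.35 and Ptprr at -3.41 ± 0.86, and after subtraction none was positive and 1 negative. Among relatives Dusp14 (2.23 ± 0.46) and Spred1 (1.12 ± 0.32) were positive and Dusp27 (-3.99 ± 1.26) and Spry4 (-2.29 ± 0.70) negative. After subtraction Dusp14, Spred1 and Spry4 were not called, Spry4 was at 3.07, and Dusp27 was not among the genes tested. In the 4 KLF2+ libraries Spry4 was at 0.869 to 3.77 CPM, Dusp27 at 0.0654 to 4.28 CPM and Ptprr at 0.349 to 3.32 CPM. The differences of these 3 genes thus have no firm size, and that of Spry4, at -2.29 and 3.07, has no firm direction either. Dusp7 was at 0.07 ± 0.28.

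Between the unstimulated populations, where 1.07% of all genes were called higher and 1.25% lower, the targets had 1 gene called higher in KLF2+, Ier2 at 1.63 ± 0.24, and 1 lower, Jun at -1.97 ± 0.32, both also called after subtraction (1.31 and -2.47). Jun encodes a subunit of the AP-1 transcription factor. Rasa3 at 1.49 ± 0.28 and the phosphatase Ptpn6 at 1.03 ± 0.23 were called higher in KLF2+ too, and after subtraction Ptpn6 was still called and Rasa3 was not (1.18, adjusted p = 0.0839 by edgeR). Calls that appeared only after subtraction were lower values of Spry4 (adjusted p = 0.0475 by edgeR), Gadd45b (-1.30) and Mapkapk3 (-0.60). Spry4 was at 3.77 and 1.59 CPM in KLF2+ and at 9.24 and 10.7 CPM in KLF2-, so its fold change has no firm size. The most abundant genes of the lists without a call were at 0.77 (Dusp7), 0.53 (Dusp11), -0.77 (Spred1) and 0.22 (Mapkapk2).

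Between the stimulated populations 35.5% of all genes were called higher and 39.7% lower with TMM, and 16.0% and 38.6% after subtraction. Of 21 targets 14 were higher and 1 lower with TMM, led by Junb at 2.06 ± 0.24, Ier2 at 1.85 ± 0.24 and Srf at 1.84 ± 0.24, and after subtraction 4 of 19 and 2. The ERK cascade had 11 of 22 higher and 2 lower with TMM and 5 and 9 after subtraction. The JNK and p38 genes had 11 of 19 and 2 with TMM and 3 and 11 after subtraction, so more genes of both lists were lower than higher after a step that changes the counts, the scaling and the genes tested together. Rps6ka1 was higher under both (1.91 and 0.68), as were Map2k2 (1.79 and 0.56), Mapkapk2 (2.19 and 0.94) and Map2k3 (2.03 and 0.78). Mapk14, the p38 alpha kinase, was at 1.24 with TMM and -0.02 after subtraction. Of the 10 other phosphatases 7 were higher and 1 lower with TMM, led by Ptpn6 at 1.75 ± 0.23, Ppp2ca at 1.93 ± 0.25 and Ptpn7 at 1.61 ± 0.22, and 2 and 2 after subtraction.

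Of 4 other Sprouty and Spred genes 2 were lower and none higher, and after subtraction 1 of 3 was lower. Spry4, a Sprouty gene outside the 8, was lower in stimulated KLF2+ at -4.20 ± 0.54 (adjusted p = 0.000325 by edgeR), and at -6.35 (adjusted p = 0.00775) after subtraction. It stood at 0.869 and 1.003 CPM in stimulated KLF2+ and 16.2 and 19.4 CPM in stimulated KLF2-. Spred3 was lower at -2.60 ± 0.81, at 0.680 and 0.240 against 2.14 and 3.49 CPM. Such low levels in KLF2+ leave both fold changes without a firm size. Of the atypical DUSP genes 4 of 14 were higher, among them Dusp14 at 2.41 ± 0.34 and Dusp11 at 1.1001 ± 0.20, and 8 lower, among them Dusp3 at -1.88 ± 0.36. After subtraction 1 of 10 was higher and 5 lower, and Dusp11 was at -0.05. Of the 3 other MAP kinase phosphatases Dusp7 was higher at 0.84 ± 0.20, turning to -0.35 after subtraction, and Dusp8 was lower at -4.69 ± 0.81. Dusp8 was at 0.189 and 0.218 CPM in stimulated KLF2+ and 3.63 and 6.75 CPM in stimulated KLF2-, so its fold change has no firm size either.

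Across the 8 libraries, Pearson's r of log2 CPM was 0.96 between Dusp4 and Dusp6, 0.81 between Dusp2 and Spry1, -0.96 between Dusp2 and Spry2, and -0.79 between Spry1 and Spry2. These are descriptions over 8 points in 4 groups that share depth and background, with no p. Among about 9978 other genes of at least 10 CPM, those with the pattern most like Dusp5 were Samd4b (r = 1.00) and Jun (r = 0.99), the latter at 14.1 and 17.2 CPM in unstimulated KLF2+, 61.9 and 79.0 in stimulated KLF2+, 55.1 and 68.1 in unstimulated KLF2-, and 55.7 and 27.4 in stimulated KLF2-. Most like Dusp4 were Ctc1 and Sgo1 (both r = 0.99), and most like Dusp6 were Chst2 (r = 0.99) and Cd200 (r = 0.98). Chst2 was at 36.9 and 46.1 CPM in unstimulated KLF2+ and 252 and 239 CPM in stimulated KLF2+, and at 62.3 to 82.2 CPM in the 4 KLF2- libraries. Most like Spry2 was Stc1 (r = 1.00), which encodes a secreted glycoprotein and stood at 0.378 and 0.633 CPM in stimulated KLF2+, 10.3 and 2.02 in unstimulated KLF2+, 21.6 and 21.4 in unstimulated KLF2-, and 31.4 and 31.7 in stimulated KLF2-, followed by Sbf2 (r = 0.99). For Dusp2 they were Cd200r1 and Tymp (both r = 0.98), for Dusp10 Sufu and Sft2d2 (both r = 0.99), for Spry1 N6amt1 (r = 0.99) and Fance (r = 0.98), and for Dusp1, which was least closely matched, Zfp523 (r = 0.92) and Gypc (r = 0.90).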

How the data were processed

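RNA-seq was available from 8 libraries in 4 groups of 2. Reads over RefSeq exons of mm10 were counted by the authors with HOMER, per the file headers, without depth adjustment. The deposited estimated counts are multiples of 0.5 and were rounded to whole numbers. The deposited TPM were made by the authors from the same counts, per the file headers, and sum to 503794 to 523430 per library in the table. The submitters' processing notes name STAR 2.7.9, HOMER 4.11, SAMtools and DESeq2. The sources used here do not give read filters or the strand setting.

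Of 25124 genes, filterByExpr left 19146. All libraries were fitted in edgeR 4.0.16 (R 4.3.3) with TMM factors (0.626 to 1.54) and a coefficient for each group, with 4 residual degrees of freedom. The 5 contrasts were tested by quasi-likelihood F tests with Benjamini-Hochberg adjustment over all genes tested, and genes were called at an adjusted p under 0.05. CPM use TMM factors. Background was the reads per kb over the exons of 1464 receptor genes (1684 kb), times gene length, subtracted per gene. Alternatives were DESeq2 1.42.0, limma 3.58.1 on log2 TPM with pseudocounts of 1 and 0.1, other scalings and filters, the replicate block, fits of only the groups compared, and leaving out each library. The fits were tested on simulated data.

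The genes and lists were chosen with earlier results of these data known. All 8 genes are described. From each list the text names up to 3 called genes of smallest p, or the most abundant tested gene where none was called, and 1 gene that this rule names is not reported here. Genes of like pattern are the 2 with the highest Pearson r over log2 CPM (prior count 2), passing over unnamed gene models. Promoters are from RefSeq on GRCm38.p6. Protein sequences were not used here.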

Additional observations from a re-analysis of the deposited data

Results flagged for a closer look

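The change with stimulation differed between KLF2+ and KLF2- cells for 5 of the 8 genes, by edgeR's test of the difference itself with adjustment over all genes tested. On the log2 scale, as the change in KLF2+ minus the change in KLF2-, the difference was 3.42 for Dusp4, 2.85 for Dusp5, 2.52 for Dusp6, 2.63 for Dusp10 and -2.72 for Spry2. Over 17 alternatives the calls of Dusp4, Dusp5, Dusp6, Dusp10 and Spry2 were kept in 10, 14, 12, 12 and 10. The losses include fits without single unstimulated libraries, as given above. Dusp4 had 18.5 and 32 reads in unstimulated KLF2+, and Spry2 had 5 and 17 in stimulated KLF2+. Dusp5 alone was still called after background subtraction, at 1.99 (adjusted p = 0.0358), where 3.58% of all genes were called positive and 8.24% negative. Over all genes 20.3% had a positive and 15.5% a negative difference called. Of 15 macrophage and monocyte markers 11 had a negative difference called, and 4 of 13 after subtraction; their part in these values was not tested.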

How the results depend on the processing

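Of 696 values of single genes under the alternatives, 554 kept direction and call, 76 lost the call, 18 gained one and 48 changed sign. The number of the 8 genes called was 1 between unstimulated populations (2 with DESeq2 and with only the groups compared, 0 to 2 without 1 library), 7 between stimulated ones (1 when scaled on genes above 50 CPM, 2 after background subtraction and in each limma fit on TPM, 6 to 7 without 1 library), 5 in the KLF2+ response (3 after background subtraction and in the limma fits with pseudocount 1, 3 to 6 without 1 library), 0 in the KLF2- response (0 to 1 without 1 library) and 5 for the difference (1 after background subtraction and with limma without a filter, 0 to 7 without 1 library). Fewer genes were tested after background subtraction, and otherwise the cause was not tested. The share of all genes called without 1 library is not given here, so those counts cannot be set beside it.

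Signs turned as follows, as log2 fold changes in the order of scaling on genes above 50 CPM, background subtraction, and limma with pseudocount 1, pseudocount 0.1 and no filter. Between stimulated populations Dusp1 was at -0.99, -1.09, -1.15, -1.18 and -1.15, and Dusp5 at -0.15, -0.23, -0.37, -0.37 and -0.37, while Spry1 was at -0.00027 with pseudocount 1, filtered or not. In the KLF2+ response Dusp1 was at -0.049, -0.055, -0.17, -0.18 and -0.17, and Spry1 at -0.34, -0.22, -0.43, -0.51 and -0.43. In the KLF2- response Dusp2 was at 0.33, 0.40, 0.31, 0.32 and 0.31, and Dusp1 at 0.037 after background subtraction. For the difference Dusp1 was at -0.036, -0.092, -0.13, -0.13 and -0.13, Dusp2 at -0.0014 after background subtraction and -0.063, -0.064 and -0.063 with limma, and Spry1 at -0.0099, -0.0094 and -0.0099 with limma. Without 1 library, values crossed 0 for Dusp1 between stimulated populations (-0.037 to 0.68) and in the KLF2+ response (-0.12 to 1.204), for Spry1 in the KLF2+ response (-0.20 to 0.58), and for Dusp2 (-0.42 to 0.25) and Dusp4 (-0.37 to 1.93) in the KLF2- response.

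The replicate block left 2 residual degrees of freedom. With it 6 genes were called in the KLF2+ response, 1 in the KLF2- response (Dusp10, -1.81, adjusted p = 1.16e-06 by edgeR) and 7 for the difference. The share of all genes called with the block is not given here, so these counts and this p cannot be set beside it. Deviations of same-numbered libraries correlated at 0.54 in KLF2+ and 0.087 in KLF2-. Each population has 2 such pairs and no label says what a number marks, so libraries were taken to share only a number. The labels give KLF2+ and KLF2- no common number, so those comparisons had no block. Depth and background limit Spry2 most in stimulated KLF2+ (5 and 17 reads), Dusp4 in unstimulated KLF2+ (18.5 and 32 reads) and stimulated KLF2- library 4 (19 reads), and Spry1 in stimulated KLF2- (32 reads in each).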
